A study of Rattus norvegicus with 6 samples.

Results

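The genes described here are 39 of the 3221 genes in a table of expression in neonatal rat ventricular myocytes (NRVMs). They were chosen by symbol as genes of the interferon response and of antigen presentation, with earlier results of these data known. The symbols cover interferon receptors and STAT transcription factors, interferon regulatory factors, sensors of viral RNA, antiviral effectors such as the guanylate-binding proteins, and genes of peptide processing and of the rat major histocompatibility complex (MHC), called RT1. Isg15, Mx1 and B2m were not analysed here, and related genes of the table outside these 39 are given at the end. NRVMs are primary heart muscle cells, isolated here from Sprague Dawley rats at postnatal day 2. They were treated with human serum, taken either from children with nonfailing hearts (NF) or from pediatric patients with dilated cardiomyopathy (DCM), at 1% serum for 72 hours according to the sample labels, while the study's methods give a higher percentage and a range of times. RNA was sequenced in 3 NF serum and 3 DCM serum libraries, with 1 library of each kind from every NRVM preparation (3 in all, named A, B and C). Each library pooled 2 samples, no untreated cells were analysed here, and the NF libraries of preparations B and C (2 of 3) carry the same serum identifiers, whereas the DCM libraries each carry their own.

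Interferons are cytokines that cells release on infection. Type I interferons bind the receptor chains IFNAR1 and IFNAR2, and the attached JAK kinases phosphorylate STAT transcription factors, which join IRF9 and bind the interferon-stimulated response element (ISRE) of target promoters. Interferon gamma acts through STAT dimers at the gamma-activated sequence (GAS), and IRF1 sustains part of both responses. The targets include proteins that block viral replication and the proteasome subunits, chaperones and MHC class I molecules that show peptides to T cells. Heart muscle cells and cardiac fibroblasts both mount this response, which is known from viral myocarditis.

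The promoters of part of these genes hold short sequences in common. RefSeq promoters of the GRCr8 assembly, each covering 250 bases before and 50 bases after an annotated start, were found for 33 of the 39 genes, and none was used for 6 genes, among them Ifitm1, Ifi27l2b, Ddx58, Usp18 and Parp10. They were searched for an ISRE core (GAAANNGAAA, or TTTCNNTTTC on the other strand) and a GAS core (TTCNNNGAA, which reads the same on both strands). The ISRE core was present for 18 of 33 genes (54.5%), against 3.92% of all 33469 rat promoters (4.12% of the 27457 genes they belong to) and 2.70% of the other genes of the table that have a promoter. The GAS core was present for 7 of 33 (21.2%), against 8.87% of all promoters (9.39% of genes) and 7.14% of the other genes of the table. Neither core was found for 12 of the 33 genes, and for 2187 of the 2441 genes of the whole table that have a promoter. A match describes the letters in the window and says nothing about binding or about the cause of any change below. In Igtp, Irgm and Parp14 a GAS core preceded an ISRE core with 2 bases between them, and this spacing was chosen after it was seen. A GAS core and an ISRE core 2 bases apart were found in 8 rat promoters in all (0.0239%). That count takes the cores in either order and the ISRE core in either orientation. Igtp, Irgm and Parp14 are shown because all 3 genes share the layout, with the cores in capitals, 5′ to 3′ on the strand of the gene. Their positions are chr10:42874921-42874965 on the plus strand for Igtp, chr10:33742591-33742635 on the minus strand for Irgm and chr11:78408035-78408079 on the plus strand for Parp14.
Igtp: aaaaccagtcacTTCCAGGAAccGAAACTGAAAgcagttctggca
Irgm: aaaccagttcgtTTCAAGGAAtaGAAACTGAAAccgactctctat
Parp14: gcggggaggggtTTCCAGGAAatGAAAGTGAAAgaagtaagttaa

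In 3 promoters, those of Bst2, Tapbp and Gbp1, ISRE cores started 6 bases apart and so shared 4 bases. In Bst2 a GAS core also overlapped the first ISRE core by 3 bases. Bst2 (chr16:18255071-18255116, minus strand) and Tapbp (chr20:4967878-4967915, minus strand) are shown for this overlap, again with the cores in capitals. Psmb10 (chr19:50743294-50743371, minus strand) is shown as an antigen processing gene with separate ISRE cores.
Bst2: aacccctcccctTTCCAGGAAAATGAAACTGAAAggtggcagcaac
Tapbp: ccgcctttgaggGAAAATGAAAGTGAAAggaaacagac
Psmb10: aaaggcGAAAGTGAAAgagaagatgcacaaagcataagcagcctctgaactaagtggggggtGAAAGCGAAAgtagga

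Single cores are shown for Gbp5 (chr2:233910931-233910964, plus strand) and Gbp2 (chr2:234005684-234005717, plus strand), which are among the genes with the largest decrease, and for the regulatory factors Irf7 (chr1:205800071-205800104, minus strand) and Irf1 (chr10:38417781-38417813, plus strand). Gbp5, Gbp2 and Irf7 have the ISRE core in its TTTCNNTTTC orientation, and Irf1 has a GAS core alone.
Gbp5: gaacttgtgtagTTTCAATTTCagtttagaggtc
Gbp2: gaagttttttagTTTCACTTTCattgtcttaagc
Irf7: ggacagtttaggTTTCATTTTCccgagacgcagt
Irf1: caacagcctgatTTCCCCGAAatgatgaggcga

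**Figure D1:**
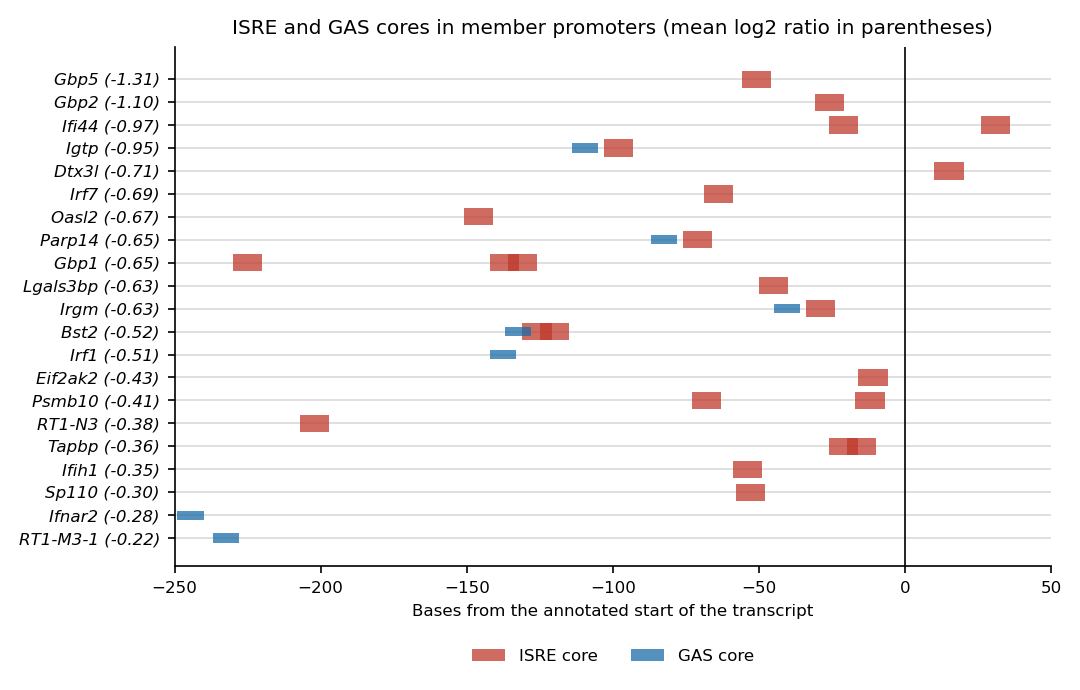
ISRE and GAS cores in the 21 member promoters that hold at least 1 of them. The x axis gives bases from the annotated start of the transcript (vertical line), each row is a gene with its mean log2 ratio (DCM over NF) in parentheses, red bars are ISRE cores and blue bars GAS cores. Of 24 ISRE cores, 14 began within the 80 bases before the start, in 12 genes.

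With DCM serum, 32 of the 39 genes (82.1%) fell and none rose in a limma fit that compared the sera within each NRVM preparation. The same fit called 61.6% of all 3221 genes of the table lower and 6.24% higher. The decrease was largest among the antiviral effectors, with Gbp5 at 0.404 times and Usp18 at 0.479 times its NF level, and the ratios nearest to no change were those of Ifitm1 and the regulatory factor Irf3, which did not pass. The median gene of the group was at 0.671 times its NF level (log2 ratio of -0.58), while the median of all 3221 genes was at 0.816 times (log2 ratio of -0.29), so part of the decrease is shared by the whole table. When each library was centred on its median over the table, the sign of the limma difference turned for 11 of the 39 genes. Of the 39, 10 genes (25.6%) were still called lower, beside 8.94% of the table.

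The table sets limits on these counts. Its genes are those with a q value under 0.10 in the authors' own comparison of the same sera, and every gene of it has the same direction in all 3 preparations (2969 lower and 252 higher with DCM serum), so the shared direction of the 39 genes across preparations comes with the selection. Values are FPKM, a fragment count scaled to exon length and to the mapped reads of the library, and 3 values in a row are those of preparations A, B and C in that order. A ratio below is DCM over NF FPKM within a preparation, given as the mean log2 ratio ± SD over 3 preparations. The 39 genes had lower levels than the table, with a median NF mean of 5.06 FPKM against 8.40. An NF mean under 2 FPKM was seen for 23.1% of them, against 9.62% of the table. The smallest variance of the 6 values of a gene was 0.1, so genes of low FPKM entered only with a large relative spread. The part of level and of this filter in the larger decrease of the 39 genes was not tested. The limma test was run on log2(FPKM + 1), whose differences understate the change of genes with low FPKM, and adjusted p is the Benjamini-Hochberg value over all 3221 genes at a threshold of 0.10. In the paired limma fit the 32 genes (82.1%) compare with 61.6% of the table called lower, and the absence of higher members compares with 6.24% called higher. The adjusted p of the 32 genes ran from 0.0262 to 0.0919 and that of the 7 others from 0.103 to 0.141. Without the pairing by preparation, limma called none of the 39 genes lower (adjusted p 0.294 to 0.746, with 7 genes at an unadjusted p under 0.05), against 0.031% of the table. With centred libraries the paired limma fit called 10 genes lower, against 8.94% of the table, and the table's own calls moved from 201 higher and 1984 lower to 254 higher and 288 lower.

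The table median FPKM was 8.19, 8.37 and 8.71 with NF serum and 7.10, 6.23 and 7.41 with DCM serum, and read counts were not used here, so the depth behind single values is unknown. Of the cell type markers examined, the cardiomyocyte genes Myl2 and Mybpc3 were the 2 of 15 in the table, with Myl2 between 6628 and 11358 FPKM in the 6 libraries. Mybpc3 was called lower, with a log2 ratio of -0.22 ± 0.18 (n = 3, limma adjusted p = 0.0949), beside 61.6% of the whole table. Myl2 did not pass at -0.24 ± 0.34 (n = 3, limma adjusted p = 0.165). Fibroblast markers were 3 of 10 (Postn, Lum and Dpt), endothelial markers 2 of 10 (Pecam1 and Egfl7), and macrophage and lymphocyte markers 0 of 15 and 0 of 12. Absence of a marker from the table says only that it was not among the selected genes.

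The decrease differed between preparations. The median log2 ratio of the 39 genes was -0.35 in preparation A, -0.86 in B and -0.46 in C, beside -0.17, -0.40 and -0.25 for the whole table. Preparation B had the lowest ratio of the 3 for 33 of the 39 genes (84.6%), compared with 58.0% of all genes. A log2 ratio under -1 was seen for 16 genes in B (41.0%, against 10.7% of the table), for 5 in C and for none in A. The largest decreases were 3.52-fold in B and 2.55-fold in C, both for Gbp5, and 1.91-fold in A for Usp18. When preparation B was left out, limma called 10 of the 39 genes lower, against 14.3% of the table, and without preparation C it called 13, against 16.2%. The same 10 genes passed in all 3 fits that left out 1 preparation, among them Gbp5, Gbp2, Gbp1, Usp18, Parp10, Sp100, Dtx3l, Lgals3bp and Tapbpl. How many genes of the whole table passed in all 3 fits was not counted. Among the other genes described in full below, Uba7, RT1-T24-3, Igtp, Irf7, Parp9, Irf1 and Ddx58 passed without A but neither without B nor without C, and Ifi44 passed without A and without C but not without B.

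**Figure D2:**
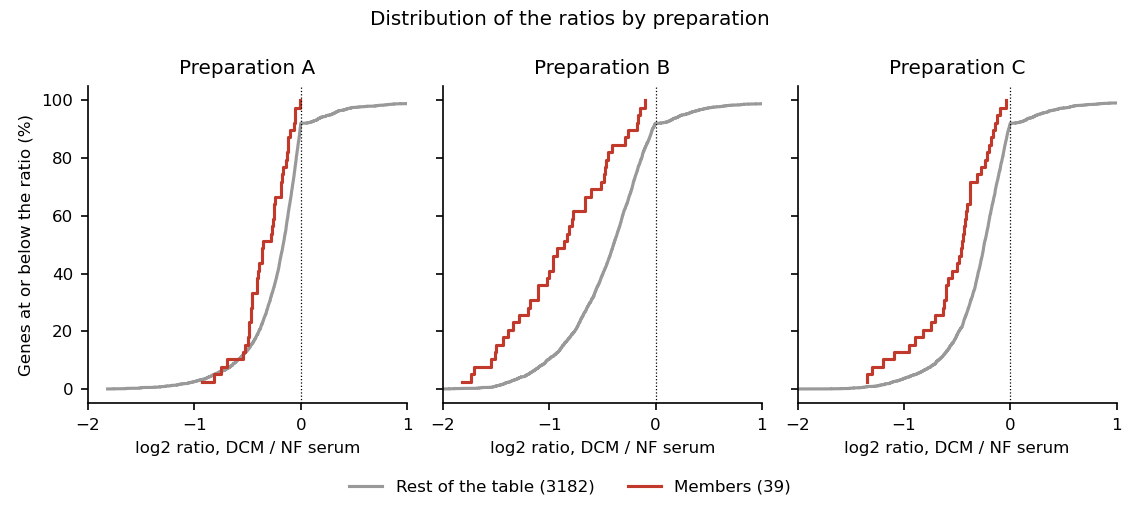
Cumulative share of genes (y axis, percent) at or below each log2 ratio of DCM to NF FPKM (x axis), 1 panel for each NRVM preparation, with the 39 genes in red and the other 3182 genes of the table in grey. The x axis stops at -2 and 1, beyond which some grey genes lie. The distance between the curves is widest in preparation B, where the medians are -0.86 for the 39 genes and -0.39 for the others.

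The NF libraries themselves varied for these genes. The range of the 3 NF libraries on the log2 scale was larger than the mean change for 30 of the 39 genes (76.9%, against 66.0% of the table). NF library C was the highest NF library for 29 genes (74.4%, against 37.0%), and it exceeded NF library B, which carries the same serum identifiers, for 35 genes with a median log2 ratio of 0.55 (0.05 over the whole table). DCM library C exceeded DCM library B for 37 genes, with a median log2 ratio of 1.00 (0.20 over the table), and it exceeded NF library B for 22 genes. Among the NF libraries, the difference between B and C (0.55) was thus close in size to the change with serum of the median gene (-0.58). Summed FPKM of the 39 genes was 379, 335 and 504 with NF serum and 321, 232 and 404 with DCM serum. Fibroblast markers followed a like order, with a summed FPKM of the 3 markers in the table of 28.5, 16.0 and 77.2 with NF serum and 24.7, 12.3 and 44.8 with DCM serum. Limma with pairing called each of the 3 lower, beside 61.6% of the whole table called lower and 6.24% called higher. Both endothelial markers in the table were called higher, Pecam1 with a log2 ratio of 0.57 ± 0.05 and Egfl7 with 0.32 ± 0.08 (n = 3, limma adjusted p = 0.0296 and 0.0656), and their summed FPKM was 4.46, 2.75 and 4.02 with NF serum and 6.04, 3.79 and 5.60 with DCM serum. The part of any of the marker lists in the results on interferon genes was not tested. In such bulk RNA, fewer cells of a type and less RNA per cell cannot be told apart.

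All 3 NF libraries lay above all 3 DCM libraries for 6 of the 39 genes (15.4%, against 25.7% of the table), namely Gbp5, RT1-T24-3, Sp100, Dtx3l, Stat5a and Ifnar2. For the other 33 at least 1 DCM library lay above at least 1 NF library.

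**Figure D3:**
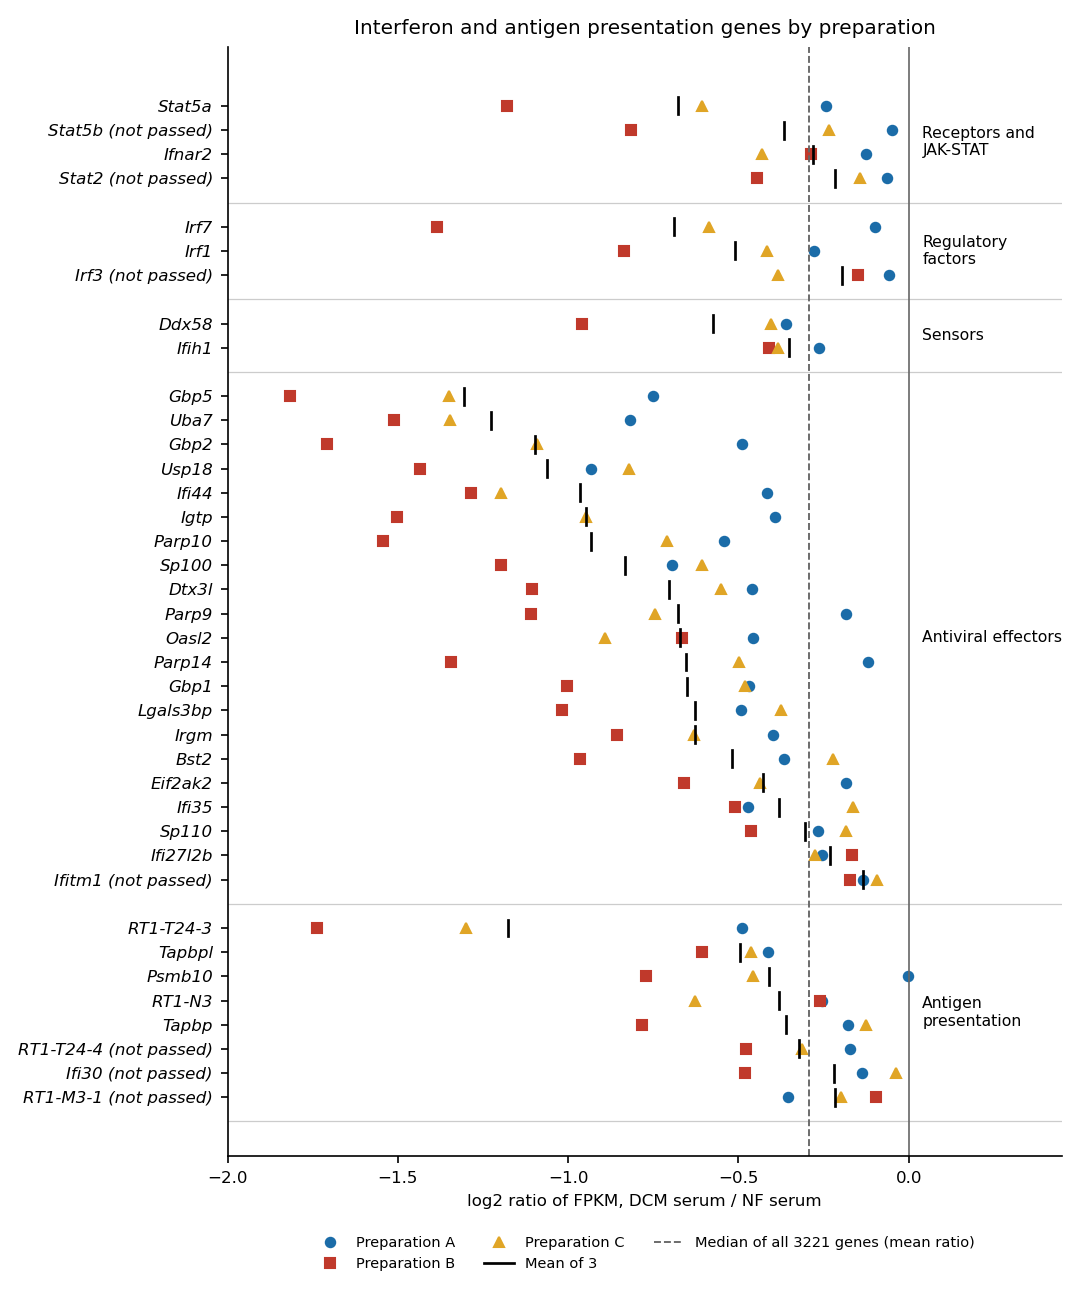
The log2 ratio of DCM to NF FPKM (x axis) of 38 of the 39 genes, grouped by role, in preparations A (blue circles), B (red squares) and C (yellow triangles), with the mean as a black bar. The solid line marks no change and the dashed line the median of all 3221 genes (-0.29). All points lie at or left of 0, as for all lower genes of the selected table, the 7 genes that did not pass the paired limma test are marked, and 11 genes turned to a positive difference when libraries were centred.

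Among the interferon receptors and JAK-STAT relays described here, Stat5a and Ifnar2 fell, and Stat5b and Stat2 did not pass. Beside them, the paired limma fit called 61.6% of the whole table lower. After centring, none of the relays and receptors described here was called, beside 8.94% of the table called lower. Stat5a, which relays prolactin, growth hormone and several interleukins, fell with a log2 ratio of -0.68 ± 0.47, and its close relative Stat5b was at -0.37 ± 0.40 without passing the test. Ifnar2, the receptor chain of type I interferon, fell by little, with a ratio of -0.28 ± 0.15, and its NF libraries were the tightest of the 39 genes, within 0.08 on the log2 scale. Stat2, a transcription factor of the type I pathway, did not pass at -0.22 ± 0.20. After centring, the limma differences of Ifnar2 and Stat2 were 0.01 and 0.06.

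Of the 3 interferon regulatory factors, Irf1 and Irf7 fell and Irf3 did not pass, beside 61.6% of the whole table called lower, and none of them passed after centring. Irf7 (ENSRNOG00000017414), which is itself induced by interferon and amplifies type I interferon production, had an FPKM of 4.48, 4.75 and 7.62 with NF serum and of 4.19, 1.82 and 5.07 with DCM serum. The decrease sat in preparations B and C, and preparation A was almost level. The mean log2 ratio of Irf7 was -0.69 ± 0.65 (n = 3, limma adjusted p = 0.0687). Irf1 (ENSRNOG00000008144), a transcription factor induced by interferon gamma, had 5.74, 4.12 and 6.88 FPKM with NF serum and 4.73, 2.31 and 5.16 FPKM with DCM serum. It was lower in each pair although DCM A and C exceeded NF B, and its mean log2 ratio was -0.51 ± 0.29 (n = 3, limma adjusted p = 0.0451). Irf3, which is present before infection and is activated by phosphorylation, was the most abundant of the 3. It averaged 37.7 ± 5.89 FPKM in NF and 32.7 ± 1.91 FPKM in DCM libraries, with a ratio of -0.20 ± 0.17. Its limma difference of -0.19 turned to 0.06 after centring.

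Both sensors of viral RNA in the group fell, as did 61.6% of the whole table. Ddx58 (ENSRNOG00000006384), which encodes RIG-I, had 2.31, 2.80 and 4.09 FPKM with NF serum and 1.80, 1.44 and 3.09 FPKM with DCM serum. DCM library C again lay above NF libraries A and B, and the mean log2 ratio within preparations was -0.58 ± 0.33 (n = 3, limma adjusted p = 0.0455). Ifih1, which encodes MDA5, had a smaller and even decrease, with a ratio of -0.35 ± 0.08. Its limma difference on log2(FPKM + 1) was -0.24, and 0.02 after centring.

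Antiviral effectors formed the largest group, with 21 genes. Of these, 20 fell, beside 61.6% of the whole table called lower, only Ifitm1 did not pass, and the median log2 ratio was -0.67. Among the 12 genes with the largest decrease of all 39, 10 belong to this group. After centring, 9 of the 21 were still called lower (Gbp1, Gbp2, Gbp5, Usp18, Ifi44, Igtp, Parp9, Parp10 and Lgals3bp), beside 8.94% of the table. The limma differences of Oasl2, Ifi27l2b and Ifitm1, on log2(FPKM + 1), turned from -0.24, -0.23 and -0.13 to 0.01, 0.03 and 0.12.

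The guanylate-binding proteins are interferon-induced GTPases that act on the vacuoles of intracellular pathogens. Gbp5 (ENSRNOG00000032240) had 1.23, 0.833 and 1.21 FPKM with NF serum and 0.733, 0.237 and 0.474 FPKM with DCM serum. All DCM libraries lay below all NF libraries, and the mean log2 ratio of -1.31 ± 0.53 was the lowest of the 39 genes (n = 3, limma adjusted p = 0.0278). Gbp2 (ENSRNOG00000031743) had 4.49, 1.60 and 3.07 FPKM with NF serum and 3.20, 0.488 and 1.44 FPKM with DCM serum. Its preparations differed more than its sera, since DCM A exceeded NF B and C, yet each pair showed a decrease, with a mean log2 ratio of -1.10 ± 0.61 (n = 3, limma adjusted p = 0.0278). Gbp1 fell with a ratio of -0.65 ± 0.30. The immunity-related GTPases Igtp and Irgm belong to a further family that acts on such vacuoles, as known from the mouse. Igtp (ENSRNOG00000027008) had 1.31, 2.09 and 3.51 FPKM with NF serum and 0.998, 0.737 and 1.82 FPKM with DCM serum, so that only DCM C lay above the lowest NF library. Its mean log2 ratio was -0.95 ± 0.56 (n = 3, limma adjusted p = 0.0430), and Irgm fell with a ratio of -0.63 ± 0.23.

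Uba7 and Usp18, whose products act on ISG15, were among the 12 genes with the largest decrease. ISG15 is a ubiquitin-like protein that is attached to other proteins during the interferon response, UBA7 is the enzyme that activates it and USP18 removes it and also restrains signaling at IFNAR2. Uba7 (ENSRNOG00000029195) had 0.231, 0.301 and 0.986 FPKM with NF serum and 0.131, 0.106 and 0.388 FPKM with DCM serum. NF library C stood well above the other 2 NF libraries, and Uba7 had the lowest NF mean of the 39 genes (0.506 FPKM). Its mean log2 ratio was -1.23 ± 0.36 (n = 3), but on log2(FPKM + 1) its limma difference was only -0.29 (adjusted p = 0.0678) and -0.04 after centring. Usp18 (ENSRNOG00000037198) had 1.86, 3.19 and 4.59 FPKM with NF serum and 0.972, 1.18 and 2.60 FPKM with DCM serum. Only DCM C exceeded the lowest NF library. Its mean log2 ratio of -1.06 ± 0.33 (n = 3) gave the smallest p of the 39 genes (limma adjusted p = 0.0262, and 0.00228 after centring). Ube2l6, the enzyme that conjugates ISG15 and a gene outside the 39, fell by less, with a ratio of -0.42 ± 0.34 (n = 3, limma adjusted p = 0.0634).

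PARP9, PARP10 and PARP14 belong to the family of ADP-ribosyltransferases, and PARP9 forms a complex with the ubiquitin ligase DTX3L. Parp10 (ENSRNOG00000004361) had 2.02, 3.68 and 3.58 FPKM with NF serum and 1.39, 1.26 and 2.19 FPKM with DCM serum. DCM C lay just above NF A, and the mean log2 ratio was -0.93 ± 0.54 (n = 3, limma adjusted p = 0.0426). Parp9 and Dtx3l are neighbours whose annotated starts lie 1214 bases apart on opposite strands of chromosome 11 (GRCr8). Parp9 (ENSRNOG00000023463) had 5.24, 6.88 and 11.1 FPKM with NF serum and 4.61, 3.19 and 6.60 FPKM with DCM serum. Dtx3l (ENSRNOG00000023400) had 1.98, 1.74 and 2.43 FPKM with NF serum and 1.44, 0.807 and 1.66 FPKM with DCM serum. The sera overlapped for Parp9 but not for Dtx3l, and both had nearly the same mean log2 ratio, of -0.68 ± 0.47 for Parp9 and -0.71 ± 0.35 for Dtx3l (n = 3, limma adjusted p = 0.0488 and 0.0381). In both genes the ratio of preparation B was -1.11 and that of A the smallest in size. Parp14 fell with a ratio of -0.65 ± 0.63, with -1.34 in preparation B and -0.12 in A.

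Ifi44 (ENSRNOG00000022218), a gene named for its induction by type I interferon, had 2.40, 3.65 and 7.62 FPKM with NF serum and 1.80, 1.50 and 3.32 FPKM with DCM serum. NF C was more than 2-fold above the other NF libraries, and the mean log2 ratio was -0.97 ± 0.48 (n = 3, limma adjusted p = 0.0389). Sp100 (ENSRNOG00000022769), a component of PML nuclear bodies, had 1.92, 1.52 and 1.86 FPKM with NF serum and 1.18, 0.665 and 1.22 FPKM with DCM serum. Its NF libraries were close together and all lay above the DCM libraries, with a mean log2 ratio of -0.83 ± 0.32 (n = 3, limma adjusted p = 0.0307). Its relative Sp110 fell by less, with a ratio of -0.30 ± 0.14. The remaining effectors that fell were Oasl2, a member of the oligoadenylate synthetase family (-0.67 ± 0.22), Lgals3bp, a secreted glycoprotein that binds galectins (-0.63 ± 0.34), Bst2 or tetherin, which holds budding virus at the cell surface (-0.52 ± 0.39), Eif2ak2, the RNA-dependent kinase PKR (-0.43 ± 0.24), Ifi35 (-0.38 ± 0.19) and Ifi27l2b (-0.23 ± 0.06). The 2 effectors with the highest levels had the smallest ratios in size. Ifi27l2b averaged 78.6 ± 22.0 FPKM in NF and 66.4 ± 16.6 FPKM in DCM libraries, and Ifitm1, a membrane protein that hinders viral entry, averaged 52.8 ± 18.8 FPKM in NF and 48.5 ± 18.4 FPKM in DCM libraries (-0.13 ± 0.04).

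**Figure D4:**
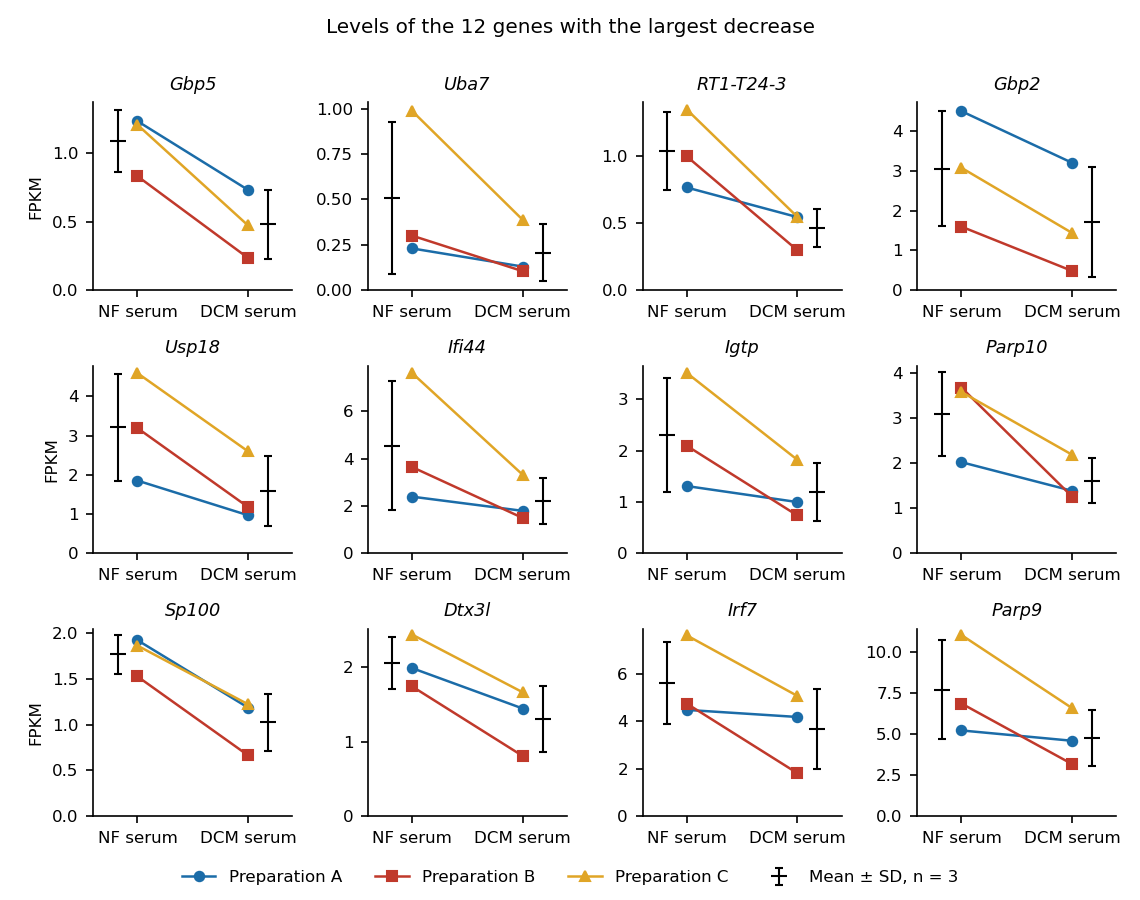
FPKM (y axis, from 0, own scale in each panel) of the 12 genes with the largest decrease, in NF serum and DCM serum libraries (x axis) of preparations A, B and C, with lines joining the libraries of 1 preparation and black marks giving the mean ± SD of 3 libraries. Every line falls, as the selection of the table requires of lower genes, and the spread between preparations is wide for Uba7 and Gbp2 and narrow for Sp100 and Dtx3l.

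Of the 8 genes of antigen processing and presentation, 5 fell (RT1-T24-3, Tapbpl, Psmb10, RT1-N3 and Tapbp), with a median log2 ratio of -0.37, and none was called after centring. The share of 5 in 8 is close to the 61.6% of the whole table that the paired limma fit called lower, so the count does not set these genes apart from the table. RT1-T24-3 (ENSRNOG00000045924), an MHC class I gene, had 0.764, 0.995 and 1.34 FPKM with NF serum and 0.544, 0.298 and 0.546 FPKM with DCM serum. All NF libraries lay above all DCM libraries, and the mean log2 ratio of -1.18 ± 0.63 (n = 3, limma adjusted p = 0.0425) set it apart in size from the other RT1 genes, a difference that was not tested. RT1-N3 fell with a ratio of -0.38 ± 0.21, and RT1-T24-4 and RT1-M3-1 did not pass at -0.32 ± 0.15 and -0.22 ± 0.13. Tapbpl (ENSRNOG00000027552), a tapasin relative that edits the peptides bound to MHC class I, had 5.68, 4.79 and 6.88 FPKM with NF serum and 4.27, 3.14 and 4.99 FPKM with DCM serum. DCM C slightly exceeded NF B, and the ratios of the 3 preparations were close together, with a mean of -0.49 ± 0.10 (n = 3, limma adjusted p = 0.0307). Tapbp, which encodes tapasin, fell with a ratio of -0.36 ± 0.37. Psmb10, a subunit of the immunoproteasome, fell with a ratio of -0.41 ± 0.39, and its level in preparation A was nearly the same with both sera (8.81 FPKM with NF and 8.79 FPKM with DCM serum). Ifi30, a lysosomal thiol reductase of the MHC class II pathway, did not pass at -0.22 ± 0.23. The limma differences of RT1-N3, RT1-T24-4, RT1-M3-1 and Ifi30, on log2(FPKM + 1), were -0.23, -0.13, -0.16 and -0.21. After centring they turned to 0.03, 0.13, 0.10 and 0.05. The RT1 class I genes, the guanylate-binding proteins, the immunity-related GTPases and the STAT5 genes have close relatives in the genome, and how reads shared between them were assigned is not given in the sources used here, so values of single members of these families are uncertain.

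The 18 genes with an ISRE core, among them Gbp5, Gbp2, Igtp, Irgm and Parp14 shown above, had a median log2 ratio of -0.64, and the 15 genes whose promoter held none had a median of -0.38. This order was seen in each preparation, at -0.38 and -0.24 in A, -0.98 and -0.61 in B and -0.53 and -0.42 in C. The table was selected for ratios that agree across these preparations, so the repeated order is no independent support. The ranges overlapped widely, from -1.31 to -0.30 with the core and from -1.23 to -0.20 without it, and Uba7 and RT1-T24-3 were among the lowest without a core. Among the other genes of the table, the 65 with an ISRE core had a median log2 ratio of -0.30 and those without it -0.29. For the GAS core, the medians were -0.52 in the 7 genes with it and -0.56 in those without it. These are descriptions of the promoters at hand, with no test.

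Related genes outside the symbol list were examined in the same fit. Of 35 other genes of interferon induction and signaling, 7 were in the table, and 2 fell in the paired limma fit, Rnf135, a ubiquitin ligase that activates RIG-I (log2 ratio of -0.54 ± 0.41), and Mb21d1, the DNA sensor cGAS (-0.51 ± 0.20). Of 39 other interferon-stimulated genes, 12 were in the table and 8 fell, and those with the smallest p were Trim34 (-0.74 ± 0.34), Mov10, an RNA helicase (-0.69 ± 0.43), Adar, which edits double-stranded RNA (-0.41 ± 0.25), and Slfn2 (-0.46 ± 0.32). Of 21 other genes of antigen presentation, 5 were in the table and 3 fell, namely Nfyb, a subunit of the NF-Y factor that binds MHC promoters (-0.40 ± 0.10), Psme1, a proteasome activator subunit (-0.39 ± 0.28), and Pdia3, a chaperone of the MHC class I loading complex (-0.23 ± 0.13). Read against the 61.6% of the whole table called lower, 8 of 12 and 3 of 5 are close to that share and 2 of 7 is below it. None of these genes rose, and none was called by limma without the pairing. The counts cover only the genes present in the selected table.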

How the data were processed

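RNA-Seq was performed on NRVMs after treatment with either serum, with 3 libraries for NF and 3 for DCM (150-base reads per the labels). The authors checked reads with FastQC, aligned them to Rnor_5.0 with GSNAP, computed FPKM with Cufflinks, removed genes of low variance and deposited FPKM for 3221 genes, all with a q value under 0.10. The number of genes in this table is not that of the changed genes described by the study, and how the sets relate is not given in the sources used here. The table's 6 columns of fold changes, p-values and q-values hold the authors' comparisons and were not used beyond checking that threshold. Read counts were not used, so depth per value is unknown. No FPKM was 0.

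Members were matched by symbol, and promoters came from RefSeq (GRCr8), which was used for names and sequences only. Expression was compared with limma 3.58.1 in R 4.3.3 on log2(FPKM + 1), a pseudocount of 1, with NRVM preparation as a block and Benjamini-Hochberg adjustment over 3221 genes at 0.10. Tables were made in Python 3.11.15 with pandas 2.3.3. The script was tested on simulated data. The pairing comes from the table's column names, which set each DCM library against 1 NF library. Deviations from the group means correlated at 0.873, 0.743 and 0.741 within pairs and between -0.71 and 0.24 otherwise. The selection of genes with steady ratios within pairs favors high values within pairs. Deviations from a mean of 3 libraries favor negative values otherwise, so these correlations are no independent check of the pairing. Whether libraries of a serum came from separate donors is not fully given by the labels. The p-values of the paired fit measure the spread of the differences within these preparations, and cannot be read as a spread between donors.

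Members, roles and other lists were chosen with earlier results of these data known, and the roles of Ifi30 and Ifitm1 were set after the table was seen. Values in each library are given for the 12 members with the largest change and for the member with the smallest p of each of 5 roles, except that results for 1 member are not reported here, although it is in all counts. Alternatives covered the block, pseudocounts of 0.1 and 0.5, a filter at 1 FPKM, a threshold of 0.05, centred libraries, limma-trend, robust eBayes and omission of each preparation.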

Additional observations from a re-analysis of the deposited data

How the results depend on the processing

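The 32 genes called lower of 39 became 0 without the replicate block (genes called in the table went from 2185 to 4), 19 at an adjusted p under 0.05 (864 in the table) and 10 after centring on library medians (542 in the table). Leaving out 1 preparation gave 10 to 25 genes and 592 to 1304 in the table. Pseudocounts of 0.1 and 0.5, limma-trend and robust eBayes gave 32, 33, 34 and 32 genes, and the filter at 1 FPKM gave 28 of the 34 genes it kept. No setting called any of the 39 genes higher. The median log2 ratio of -0.58 became -0.29 after centring, -0.38 to -0.68 when a preparation was left out, and -0.38 with a pseudocount of 1, an alternative chosen after seeing the data. Centring turned the differences of Oasl2 (0.0148), RT1-N3 (0.0259), Ifih1 (0.0183), RT1-T24-4 (0.126), Ifnar2 (0.00716), Ifi27l2b (0.0251), Ifi30 (0.047), Stat2 (0.058), RT1-M3-1 (0.0988), Irf3 (0.0625) and Ifitm1 (0.124). On log2(FPKM + 1), this follows from the mean shift of the library medians by -0.25, in a table of mostly lower genes. Its medians may not hold for whole libraries. On log2 FPKM the mean shift was -0.29. The mean log2 ratios of Oasl2 (-0.67), RT1-N3 (-0.38), Ifih1 (-0.35) and RT1-T24-4 (-0.32) lie below that shift. These genes thus turned only on log2(FPKM + 1), while the ratios of the others listed lie above it. The paired test was run on genes selected for steady ratios, which favors passing it.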
